A study of Drosophila melanogaster with 2 samples.

Results

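The binding peaks described here fell just short of the cut that would have called them reproducible. They came from chromatin immunoprecipitation followed by sequencing (ChIP-seq) of Atonal, the product of ato, in fruit fly (Drosophila melanogaster) embryos. Every peak of that experiment that was found in both replicates has an irreproducible discovery rate (IDR), an estimate of how likely it is that the ranks of the peak do not repeat between replicates. The peaks were chosen by that value: a global IDR above 0.01 and up to 0.05 in the ranked list that pairs the replicates, on the main chromosome arms. They are called near-miss peaks below and number 2261 of 159835 ranked peaks. They are set against 3118 passing peaks (global IDR of 0.01 or lower) and, as a background, 154456 low-ranked peaks (global IDR above 0.05).

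There was 1 group, with 2 biological replicates: whole embryos aged 0 to 18 h of the transgenic strain ato-GFP, which expresses an ato-eGFP fusion, with chromatin precipitated by an anti-GFP antibody. No untagged or untreated group and no control library was analysed here, so the level without tagged Atonal is unknown for every peak below. Whole embryos pool all tissues, and Atonal is made in few of their cells. The files give peaks with signals and no reads, so the depth is unknown. The ranked list does not say which of its signal columns belongs to which labelled replicate, and these are called the first and the second replicate column.

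Atonal is a proneural basic helix-loop-helix factor. It pairs with Daughterless, the product of da, and the pair binds E-boxes, short sites that read CANNTG. In flies it starts the development of chordotonal stretch-sensing organs, of some olfactory organs and of the founder photoreceptors of the eye. Promoters of widely expressed fly genes often carry other short elements, among them the DNA replication-related element (DRE, TATCGATA), bound by the factor DREF, and the site of M1BP (GGTCACAC). Both often appear in ChIP peaks at active promoters.

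The bases at some near-miss summits are shown to make the contrast concrete between peaks with an Atonal-type E-box and peaks with a promoter element. The Atonal-type site is CAGGTG with A or T just before it, or CATGTG with A or T just before it, on either strand. The search for windows to print left out a chromosome arm, which is not named here, so its counts do not cover the whole genome. On the other arms, 857 near-miss peaks lay in introns or intergenic DNA and away from any UTR. Of these, 17 held such a site within the 61 bases around the summit. As a background, the site lay within 25 bp of 1.59% of all near-miss summits. In equal windows 500 bp to the left and right it was in 1.81% and 1.90%. The windows shown are thus examples, not a sign that the site is frequent at these summits. Of the 17, the 5 of highest signal are given on the plus strand of the RefSeq dm6 assembly, with the site in capitals. They lie near Pka-C3 (a protein kinase A catalytic subunit, chr3L:15954265-15954325), bel (a DEAD-box RNA helicase, chr3R:8659516-8659576), ogre (a gap junction innexin, chrX:6985702-6985762), Cad96Cb (chr3R:25231826-25231886) and dati (a zinc finger factor, chr4:386832-386892).
Pka-C3: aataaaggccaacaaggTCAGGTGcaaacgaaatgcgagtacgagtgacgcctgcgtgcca
bel: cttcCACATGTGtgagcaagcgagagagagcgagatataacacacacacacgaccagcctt
ogre: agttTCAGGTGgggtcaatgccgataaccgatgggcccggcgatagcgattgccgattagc
Cad96Cb: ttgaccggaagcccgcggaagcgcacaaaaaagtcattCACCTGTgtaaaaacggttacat
dati: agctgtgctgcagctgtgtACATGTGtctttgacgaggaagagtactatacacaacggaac

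Of the same 857 peaks, 10 held the DRE in those 61 bases. Within 25 bp it was at 0.929% of all near-miss summits and in 0.177% and 0.442% of the equal windows to each side, without a call. Of the 10, the 3 of highest signal lie near ArgRS (an arginyl-tRNA synthetase, chrX:15844157-15844217), CG3603 (chrX:2949311-2949371) and CG6144 (chr2L:10488633-10488693). They were added after their values were seen. Capitals mark the DRE.
ArgRS: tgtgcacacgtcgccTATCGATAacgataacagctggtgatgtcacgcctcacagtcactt
CG3603: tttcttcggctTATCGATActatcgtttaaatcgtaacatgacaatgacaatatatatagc
CG6144: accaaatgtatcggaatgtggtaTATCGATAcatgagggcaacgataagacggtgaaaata

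The gene of the tagged protein, ato, had a pair of near-miss summits, at -87 and 117 bp from its start. The window at -87 bp (chr3R:8277935-8277995) is intergenic. The 101 bp around this summit hold the E-box CACGTG, which the left end of the 61 bases below cuts by its first base, and the Zelda site CAGGTAG, which the bases below hold on the other strand. No Atonal-type site lies in the 101 bp.
ato: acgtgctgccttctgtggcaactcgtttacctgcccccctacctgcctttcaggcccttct

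The signal and the IDR chose these peaks, so both are a description only. The signal of the pooled peak had a median of 50.3 in near-miss peaks (quartiles 43.7 and 56.2, highest 109.1), 88.7 in passing peaks and 17.3 in low-ranked peaks, in the authors' signal unit, whose scale is not stated. Every near-miss interval is 336 bp wide. The signal of the weaker replicate lay in a narrow range, 19.4 to 28.6 in all 2261, with a median of 23.2, against a median of 39.1 in passing peaks. The stronger replicate reached up to 127.2. The plot of signals in both replicates shows this as an L-shaped band.

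**Figure D1:**
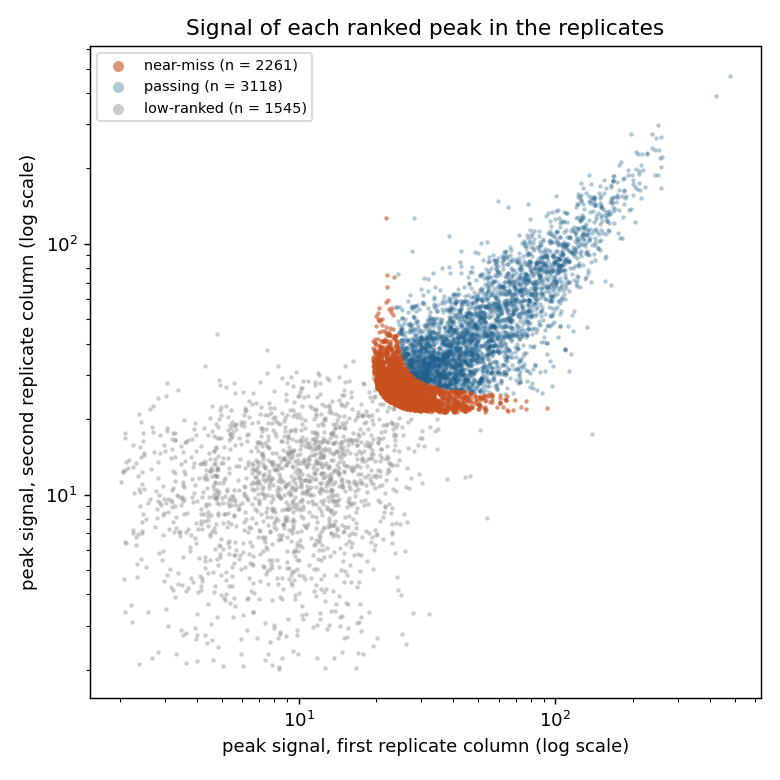
Signal of each ranked peak in the first replicate column (horizontal, log scale) and the second (vertical, log scale); each point is 1 peak, with all 2261 near-miss and 3118 passing peaks and every 100th low-ranked peak (1545). The near-miss peaks form a band along the lower left edge of the passing cloud, with arms where only 1 replicate was strong.

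At the edge next to the passing peaks, the near-miss peaks of lowest IDR were nearest to Klp31E (0.01001, pooled signal 68.7), CG8117 (0.01002, signal 65.6) and CG8435 (0.01003, signal 40.3). Just across the edge stood passing peaks nearest to bun (0.009997, signal 43.2), strat (0.009987, signal 89.0) and CG42663 (0.009977, signal 63.3). At the other edge, the near-miss peaks nearest to CG30291, Gasp and Rfx had signals of 46.1, 47.7 and 54.9 at IDRs of 0.04999, 0.04997 and 0.04994. The low-ranked peaks next in line lay nearest to CG31937, CG13168 and zfh1, with signals of 52.8, 48.1 and 45.2 at IDRs of 0.05001, 0.05004 and 0.05006. Signals on either side of each edge overlapped.

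The 10 near-miss peaks of highest signal were all over 2-fold higher in the first replicate column than in the second. The strongest lay 63 bp upstream of brat, a translational repressor that limits neural stem cell growth (chr2L:19133585-19133920). Its signal was 59.2 in the first column and 22.3 in the second, with a pooled signal of 109.1. Its summit also lay within 500 bp of the Polr1D start. The peak nearest to gzl, an endosomal ubiquitin ligase (chr3R:6388303-6388638), had 77.0 and 21.9, and its summit lay 4136 bp from the gzl start. The peak at CanA-14F, a calcineurin subunit (chrX:16587008-16587343), had 73.8 and 22.4, with its summit 4 bp upstream of the start. The peak in an intron of Mef2, the muscle differentiation factor (chr2R:9929819-9930154), had 62.3 and 22.2, and the peak upstream of T48, a membrane protein of the folding mesoderm (chr3R:26881461-26881796), had 65.5 and 21.6. The T48 summit also lay within 500 bp of the ro start. The other 5 of the top 10, nearest to CG8490, CG13917, CG30065, Osbp and Tlk, had 63.8 to 76.7 in the first column and 21.8 to 24.8 in the second. All 10 overlapped a peak in the thresholded list of replicate 1, and those at brat and CG30065 also overlapped one in the list of replicate 2, which 12 of the 2261 near-miss peaks did.

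Among all near-miss peaks, 98 (4.33%) had replicate signals over 2-fold apart, and the first column was higher in 68 of these. The median ratio of the higher to the lower signal was 1.24 in near-miss peaks, 1.24 in passing peaks and 1.67 in low-ranked peaks. Of the 98 lopsided peaks 75.5% were within 500 bp of a start, against 49.0% of the other 2163. DREs were found at 11.2% of the lopsided peaks and 1.43% of the others, and coding exons held 6.12% and 24.0%. As the signal of the weaker replicate lay in that narrow range, this splits the near-miss peaks by the signal of the stronger one, a value that went into the choice of peaks, so these shares are a description without a test. Peaks, not embryos, are the units of every test here, so a p-value says nothing of how far the replicates spread, and intervals cover the counting of peaks only.

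The first question was whether near-miss peaks sit where passing peaks sit. They stood between the other classes. Of 2261 near-miss summits, 1134 (50.2%, 95% Wilson interval 48.1 to 52.2%) lay within 500 bp of an annotated transcription start, against 2675 of 3118 passing summits (85.8%, 84.5 to 87.0%; two-sided Fisher's exact test, p = 1.70e-178). Among low-ranked summits the share was 14.05% (21694 of 154456), and the log2 odds ratio of near-miss against low-ranked peaks was 2.62, with a p too small for the computation to represent. The median distance to the nearest start was 495 bp for near-miss, 50 bp for passing and 2715 bp for low-ranked summits.

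The share near a start changed step by step with the IDR and not at the threshold alone. It was 94.5% at an IDR up to 0.001, 78.4% from there to 0.01, 56.5% from 0.01 to 0.02 and 46.9% from 0.02 to 0.05. It went on to 32.3% from 0.05 to 0.1, 25.3% from 0.1 to 0.2 and 13.5% above 0.2. The 757 near-miss peaks next to the threshold thus had a share between that of the passing band beside them and that of the other 1504 near-miss peaks. These steps are a description without a test.

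**Figure D2:**
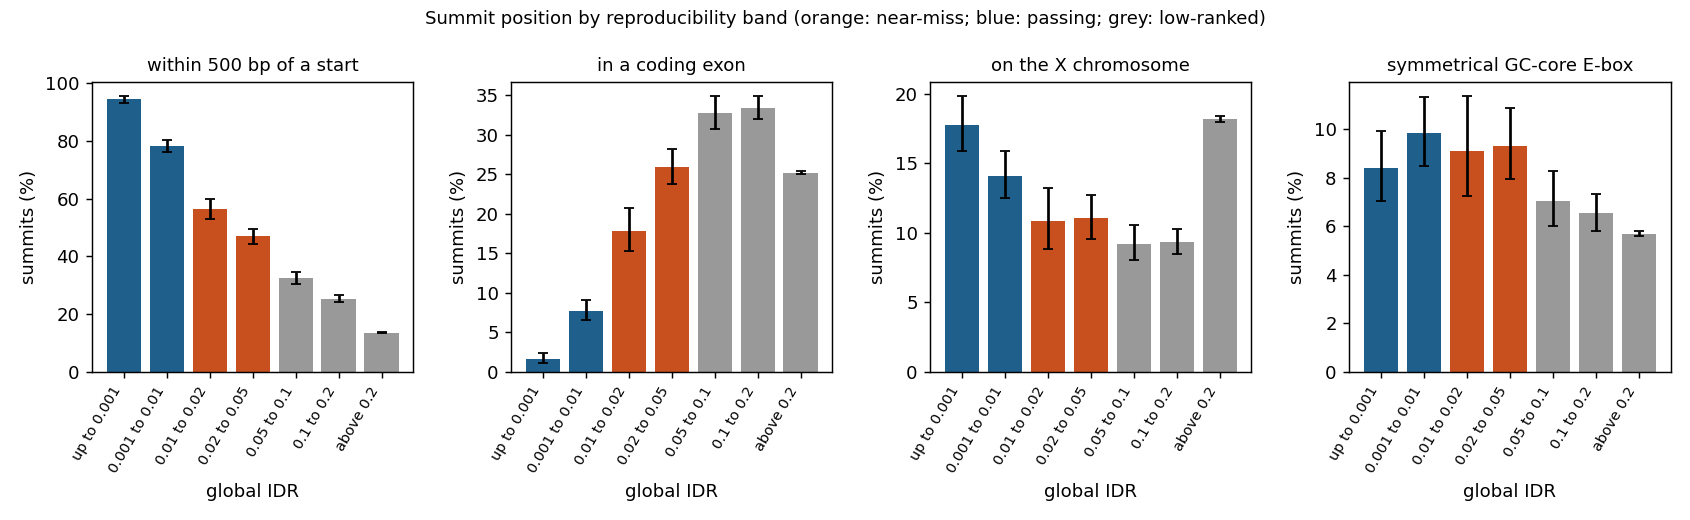
Share of summits (vertical, %, bars with 95% Wilson intervals) by band of global IDR (horizontal) for 4 measures: within 500 bp of a start, in a coding exon, on the X chromosome, and with the E-box CAGCTG within 50 bp. The share near a start drops at each step from 94.5% to 13.5%, coding exons climb to 33.4% and then drop to 25.2%, and the X share is lowest, at 9.20%, in the band from 0.05 to 0.1.

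Close to coding starts the near-miss summits were also more spread out and shifted downstream. Within 500 bp of a protein-coding start, 1051 near-miss summits had a median position of 17 bp (quartiles -53.5 and 113.5 bp), against -23 bp (-55 and 14 bp) for 2523 passing and 83.5 bp for 18298 low-ranked summits. Of these, 55.9% of near-miss, 81.5% of passing and 26.4% of low-ranked summits lay within 100 bp of the start (two-sided Fisher's exact test, p = 1.07e-53 against passing and p = 3.00e-85 against low-ranked). Upstream of the start lay 43.9% of the near-miss, 68.3% of the passing and 38.3% of the low-ranked summits.

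**Figure D3:**
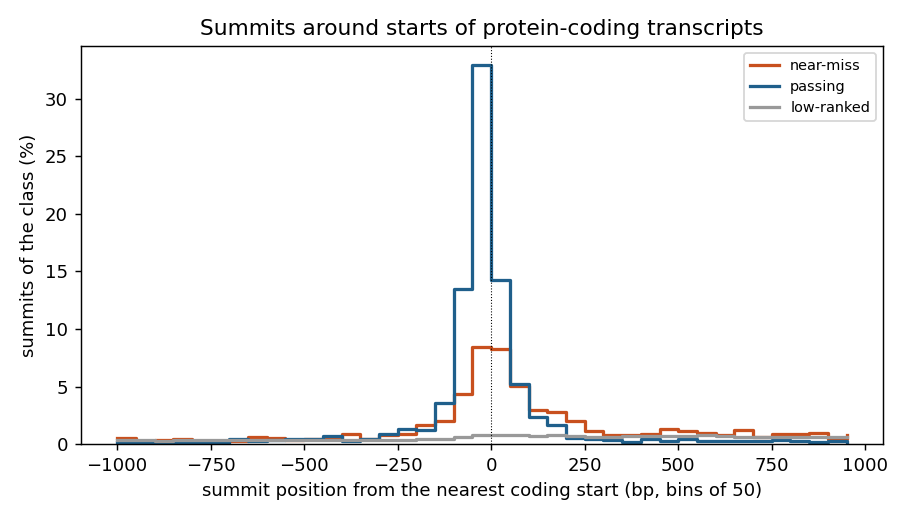
Summits by position from the nearest protein-coding start (horizontal, bp, bins of 50; negative is upstream) as a share of all summits of the class (vertical, %). The passing peaks form a sharp mode just upstream of the start, the near-miss peaks a lower mode with a tail downstream, and the low-ranked peaks a nearly flat line.

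By annotation, near-miss summits were more often in coding exons and introns than passing summits were. Coding exons held 525 near-miss summits (23.2%) against 4.84% of passing and 25.5% of low-ranked summits (adjusted exact p = 1.17e-89 and 0.0134, two-sided Fisher's exact test with Benjamini-Hochberg adjustment over 12 tests). Introns held 27.7% of near-miss, 15.1% of passing and 39.8% of low-ranked summits (adjusted exact p = 3.84e-29 and 2.00e-32). Intergenic DNA held 23.5%, 47.7% and 25.7% in the same order (adjusted exact p = 3.48e-74 and 0.0225). The 5′ UTRs held 19.8% of near-miss, 26.1% of passing and 3.79% of low-ranked summits (adjusted exact p = 1.73e-07 and 1.06e-174). Non-coding exons held 3.41%, 5.10% and 1.97% (adjusted exact p = 0.00441 and 1.54e-05), and 3′ UTRs held 2.30%, 1.25% and 3.22% (adjusted exact p = 0.00496 and 0.0134). In this list of both replicates, the near-miss peaks thus had a coding exon share nearer to that of the low-ranked peaks and a 5′ UTR share nearer to that of the passing peaks.

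Some of these values moved, and some calls were lost, in the ranked lists of a single replicate, which hold fewer near-miss peaks (1426 for replicate 1 and 1032 for replicate 2). The same IDR limits were applied there, but the IDR of such a list cannot compare the replicates with each other. Near-miss peaks of these lists are thus another set, chosen by an unlike measure. The coding exon difference from low-ranked peaks, -2.31 points with both replicates, was -10.6 points in replicate 1 alone (16.5% against 27.2%) and -5.46 points in replicate 2 alone (18.99% against 24.4%). In the ranked list of replicate 1 alone, the 5′ UTR share of near-miss peaks differed from that of passing peaks by -1.27 points (adjusted exact p = 0.385), and in that of replicate 2 alone by 2.17 points (adjusted exact p = 0.195). The 3′ UTR difference from passing peaks was 0.724 points in replicate 2 alone (adjusted exact p = 0.144). The intergenic difference from low-ranked peaks changed sign, to 5.51 points in replicate 1 alone and 2.97 points in replicate 2 alone. For non-coding exons, replicate 1 alone gave -3.02 points against passing and 0.847 points against low-ranked peaks, in place of -1.69 and 1.44. For 3′ UTRs, replicate 2 alone gave -1.53 points against low-ranked peaks, in place of -0.925.

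**Figure D4:**
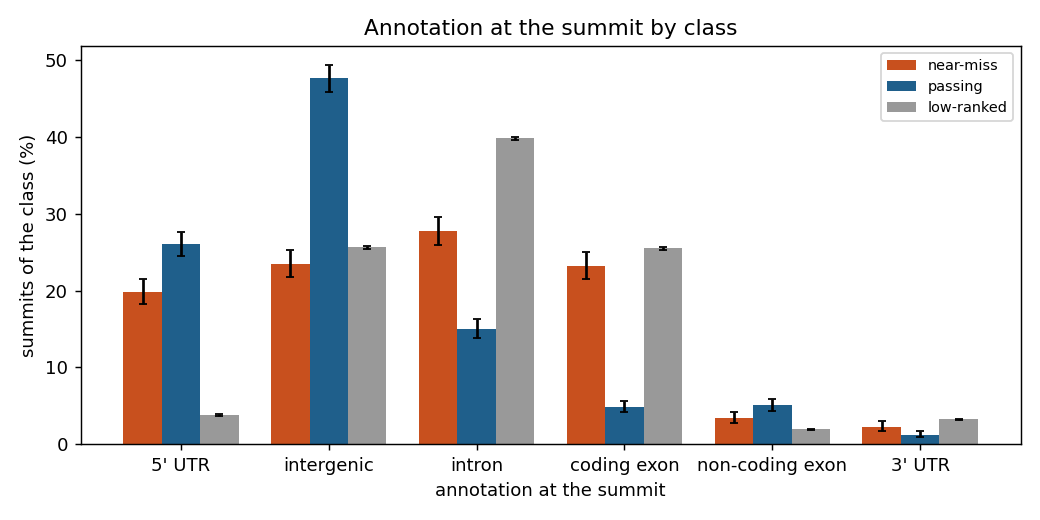
Share of summits (vertical, %, with 95% Wilson intervals) in each annotation class (horizontal) for near-miss, passing and low-ranked peaks. In this list of both replicates, the near-miss bars stand nearer to the low-ranked ones in coding exons (23.2% and 25.5%) and nearer to the passing ones in 5′ UTRs (19.8% and 26.1%).

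The near-miss peaks were thinner on the X chromosome than either other class taken as a whole. The X held 248 near-miss summits (11.0%), against 15.8% of passing and 17.8% of low-ranked summits (adjusted exact p = 2.89e-06 and 4.26e-18, two-sided Fisher's exact test with Benjamini-Hochberg adjustment over 14 tests). This was not particular to near-miss peaks. Among low-ranked peaks the X share was 9.20% at an IDR from 0.05 to 0.1, 9.34% from 0.1 to 0.2 and 18.2% above 0.2. The difference from low-ranked peaks, -6.87 points with both replicates, was -3.97 points in the list of replicate 1 alone (13.04% against 17.02%, adjusted exact p = 7.08e-04) and -4.78 points in that of replicate 2 alone. The difference had the same direction near starts and away from them. Among summits near a start the X share was 13.3%, 16.6% and 16.1% (adjusted exact p = 0.0784 for both). Among summits farther away it was 8.61%, 11.1% and 18.1% (adjusted exact p = 0.258 and 3.68e-18). On arm 3L lay 22.8% of near-miss, 18.8% of passing and 19.9% of low-ranked summits (adjusted exact p = 0.00173 and 0.00293). The 3L difference from passing peaks was 0.159 points in the list of replicate 2 alone (adjusted exact p = 0.989), and that from low-ranked peaks was -3.10 points there (adjusted exact p = 0.0381) and 1.499 points in replicate 1 alone (adjusted exact p = 0.404), so it did not hold over the replicates. The Y held 0 near-miss and 0 passing summits against 323 low-ranked ones (adjusted exact p = 0.0478); in the list of either replicate alone this call was lost.

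The next question was whether near-miss peaks overlap passing peaks. Few did. The closest near-miss and low-ranked summits both lay 199 bp from a passing summit. Shoulders closer than that are absent from the list, so the overlap cannot decide how many near-miss peaks are shoulders. Of 2261 near-miss peaks, 21 (0.929%) overlapped a passing peak by at least 1 bp, against 351 (0.227%) of the low-ranked peaks (two-sided Fisher's exact test, p = 1.74e-07), a difference of 0.702 points that was 0.438 points in the list of replicate 2 alone. Within 1000 bp of a passing summit lay 301 near-miss summits (13.3%) and 3.19% of low-ranked ones (exact p = 1.18e-92). This was not split by place. Near a start lay 85.8% of passing, 50.2% of near-miss and 14.05% of low-ranked summits, and the part of this in the closeness was not tested. The overlap difference was lost without rows that share a replicate peak, as 1 peak of a replicate can be paired with more than 1 pooled peak: 3 of 1687 near-miss and 99 of 90963 low-ranked peaks then overlapped a passing peak (exact p = 0.438). In all, 574 near-miss peaks (25.4%) shared a replicate peak with another row, against 16.3% of passing and 41.1% of low-ranked peaks. In 170 near-miss peaks the pooled signal was below both replicate signals, and 169 of these were sharing rows. The near-miss pair at ato also shares a replicate peak: both summits carry 33.7 in the first column and 22.7 in the second, with pooled signals of 48.4 and 24.4.

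The summits of near-miss peaks were less tightly placed than those of passing peaks. The replicates' summits lay at most 50 bp apart in 1093 near-miss peaks (48.3%), against 76.4% of passing and 31.1% of low-ranked peaks (two-sided Fisher's exact test, p = 3.02e-100 and p = 2.66e-64). The median distance was 53 bp in near-miss, 23 bp in passing and 97 bp in low-ranked peaks. The share was 48.4% near starts and 48.3% away from them, a difference of 0.143 points (two-sided Fisher's exact test with Benjamini-Hochberg adjustment over 31 tests within near-miss peaks, adjusted exact p = 0.966). The rank that sets the IDR uses the signal and not the summit position, although peaks enter the list only where the replicates' intervals meet.

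Most near-miss peaks were in no other deposited list of reproducible peaks. By the choice of members, 0 of them were in the conservative list. The list made from pooled reads held 409 (18.1%), against 84.0% of the passing peaks. A peak in the list of replicate 1 was overlapped by 204 (9.02%) and one in the list of replicate 2 by 61 (2.70%), against 65.0% and 51.2% of the passing peaks. In none of these 3 lists were 1756 near-miss peaks (77.7%) and 411 passing peaks (13.2%). The lists come from the same reads, so these counts are not independent evidence. The 409 in the pooled list were more often near a start than the other 1852 (63.8% against 47.1%), more often had summits within 50 bp (63.8% against 44.9%) and less often lay in coding exons (14.4% against 25.2%), shares that are given without a test since the signal also decides membership of that list.

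Motifs were sought on both strands in 101 bp windows centred on the summit and in equal windows 500 bp to the left and right. The Atonal-type E-box was called neither more nor less frequent at near-miss summits: it was in 84 windows (3.72%), in 3.76% of the windows on each side, in 3.24% of passing and in 4.32% of low-ranked summits (adjusted exact p = 1.00 against the flanks, exact McNemar test, and 0.515 against passing peaks, two-sided Fisher's exact test, each with Benjamini-Hochberg adjustment over 17 motifs). Any E-box, CANNTG, was in 43.9% of near-miss summits, 37.9% and 38.9% of their flanks, 38.6% of passing and 43.7% of low-ranked summits. It was more frequent than in the flanks (adjusted exact p = 0.00244) and than in passing peaks (adjusted exact p = 5.95e-04). The gain over the flanks was not called within 25 bp of the summit (adjusted exact p = 0.314), within 100 bp (adjusted exact p = 0.294) or near starts (adjusted exact p = 0.195), and the difference from passing peaks was not called away from starts (adjusted exact p = 0.478). The letters in another order, CNANTG, were set beside it. They are not free of E-boxes, since the 4 cores that begin with CAA match both. CNANTG was in 58.5% of near-miss summits and 50.1% and 52.6% of the flanks (adjusted exact p = 9.63e-04). Its gain over the mean of the flanks was 7.12 points, and that of CANNTG 5.48 points. The CNANTG gain was not called away from starts (exact McNemar test, adjusted exact p = 0.150). In passing summits CNANTG was in 61.9% (adjusted exact p = 0.0312), a difference that no other window or single-replicate list called. With the ranked list of replicate 2 alone, the CANNTG gain over the flanks was 2.23 points (adjusted exact p = 1.00) and the difference from passing peaks 4.18 points (adjusted exact p = 0.0737).

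Of the E-box cores, CAGCTG had the largest gain over its flanks. It was in 209 near-miss summits (9.24%) and in 4.600% and 4.73% of the flanks (exact McNemar test, adjusted exact p = 3.09e-08), and it was in 9.17% of passing summits (adjusted exact p = 0.962) and 5.74% of low-ranked ones. The gain over the flanks was seen near starts (10.1% against 5.29% and 6.08%, adjusted exact p = 0.00455) and away from them (8.34% against 3.90% and 3.37%, adjusted exact p = 1.98e-04). In the ranked list of replicate 2 alone, with 1032 near-miss peaks, the gain was 2.62 points (adjusted exact p = 0.131). CACGTG was in 2.26% of near-miss summits and in 1.06% and 1.24% of the flanks (adjusted exact p = 0.0283), a call lost in the list of either replicate alone, where the gains were 0.842 and 0.969 points, and also within 25 bp of the summit, against flanks at 1000 bp, near starts and away from them. The other 8 cores did not pass this test. Of these, CAAGTG (7.47% against 5.26%, adjusted exact p = 0.00451) and CACCTG (5.17% against 3.43%, adjusted exact p = 0.00620) were more frequent in near-miss than in passing summits. Low-ranked summits, the background, held them at 7.49% and 5.24%. Both calls were lost away from starts (adjusted exact p = 0.336 and 0.390). For CACCTG the call was also lost near starts (adjusted exact p = 0.0747), within 25 bp of the summit (adjusted exact p = 0.0621) and, at 1.26 points, in replicate 1 alone (adjusted exact p = 0.114).

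Among the motifs, the DRE had the largest difference from passing peaks. It was in 42 near-miss windows (1.86%) and 17.8% of passing windows (adjusted exact p = 6.28e-90), against 0.217% of low-ranked windows. The M1BP site was in 36 (1.59%), 4.75% of passing (adjusted exact p = 6.81e-10) and 0.256% of low-ranked windows. In the list of replicate 1 alone the M1BP difference from passing peaks was -1.38 points (adjusted exact p = 0.113), and the DRE call held in the list of each replicate. Even so, both were more frequent at near-miss summits than beside them: the DRE was in 0.708% and 0.840% of the flanks (adjusted exact p = 0.0126), and the M1BP site in 0.354% and 0.531% (adjusted exact p = 0.00244). The DRE gain, 1.08 points with both replicates, was 3.26 points in replicate 1 alone, where 3.997% of near-miss summits had one, and 3.59 points in replicate 2 alone, with 4.46%. It was not called within 25 bp of the summit (adjusted exact p = 0.241). The M1BP gain was 1.15 points with both replicates, 2.49 points in replicate 1 alone and 1.11 points in replicate 2 alone (adjusted exact p = 0.131). Away from starts the M1BP site was in 0.444% of near-miss summits and 0.177% of the windows on each side (exact McNemar test, adjusted exact p = 0.642). Its difference from passing peaks was not called there (two-sided Fisher's exact test, adjusted exact p = 0.336). Of the 42 peaks with a DRE, 40 were near a start, where the share was 3.53%. Among near-miss peaks away from starts 0.177% had one, a difference of -0.488 points from their flanks.

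The repeat GAGAGAG, which GAGA factor binds, was in 81 near-miss summits (3.58%) and in 1.90% and 1.37% of the flanks (adjusted exact p = 0.00244), against 1.44% of low-ranked summits. The gain over the flanks was 1.95 points with both replicates, 3.30 points in replicate 1 alone and 1.65 points in replicate 2 alone (adjusted exact p = 0.131), and it was not called near starts (adjusted exact p = 0.109). Passing summits held it at 2.73% (adjusted exact p = 0.192), but the difference had opposite signs by place. Near starts it was in 4.14% of near-miss and 2.06% of passing summits (adjusted exact p = 0.00234), and away from starts in 3.02% and 6.77% (adjusted exact p = 0.0131). In single lists near-miss summits had it more often than passing ones, by 2.11 points in replicate 1 (adjusted exact p = 0.00708) and 2.05 points in replicate 2 (adjusted exact p = 0.00291). The site of Zelda, CAGGTAG, was in 0.752% of near-miss summits, 0.663% and 0.531% of the flanks and 0.417% of passing summits, and passed neither test.

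**Figure D5:**
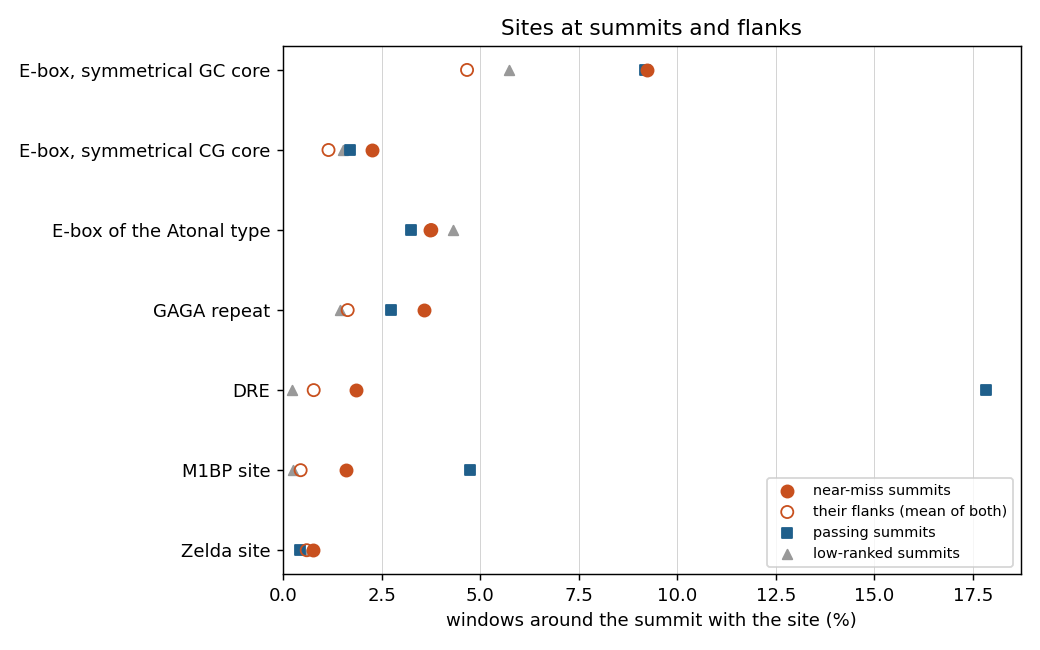
Share of 101 bp windows that hold each site (horizontal, %) at near-miss summits (filled circles), their flanks (open circles, mean of both), passing summits (squares) and low-ranked summits (triangles). The Atonal-type site is at the level of the flanks (3.72% and 3.76%), the DRE separates passing summits (17.8%) from all others, and the E-box CAGCTG, labelled by its symmetrical GC core, lies at 9.24% in near-miss and 9.17% in passing summits.

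Base composition set the summits apart from their surroundings. The mean GC content of near-miss summit windows was 49.1% ± 8.83 (SD, n = 2261 peaks), against 45.7% ± 8.26 in passing and 47.1% ± 8.95 in low-ranked windows. In the flanks of near-miss peaks it was 42.0% and 42.1%. A scan of all 2080 words of 6 bases followed this. At near-miss summits away from starts, 127 words (6.11%) were more frequent than in both flanks and 180 (8.65%) less frequent (exact McNemar test with Benjamini-Hochberg adjustment over the words). The words that were more frequent had on average 4.72 of 6 bases as G or C, and those less frequent 0.833. The largest gain was for CGCCGC (10.7% against 4.08% and 4.53%, adjusted exact p = 1.43e-06), and CAGCTG ranked 8 by gain. At summits near a start, 36 words (1.73%) were more and 35 (1.68%) less frequent. There ATCGAT (9.70% against 3.70% and 3.97%, adjusted exact p = 1.35e-04), CGATAG (8.73% against 2.73% and 3.44%, adjusted exact p = 1.82e-04) and TATCGA (10.7% against 4.94% and 5.56%, adjusted exact p = 0.00401) led the list, words that overlap the DRE, and CAGCTG ranked 10. The part of GC content in the CAGCTG and CNANTG gains was not tested.

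Turning to genes, each summit was given to the protein-coding gene whose start was closest, and distances beside a gene are from its coding transcripts' starts. A summit can also lie within 500 bp of the coding start of another gene. Among the named near-miss peaks this was so at brat (Polr1D), T48 (ro), Klp31E (CG5355), Hr3 (CG46321), Dref (RpL13) and RpL7-like (CG34164 and JhI-21). Near-miss peaks were nearest to 1805 of 13764 genes with a start of their own (13.1%), and passing peaks to 2697 (19.6%). Both kinds fell on 524 genes, which is 29.0% of the genes with a near-miss peak and 19.4% of those with a passing one, and 1281 genes had a near-miss peak and no passing peak. Of the 1805 genes, 1454 had 1 near-miss peak, 271 had 2 and 80 had 3 or more.

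The most near-miss peaks, 6 each, lay nearest to chinmo, a BTB zinc finger factor of neuronal temporal identity, and Antp, a Hox gene. At chinmo the pooled signals were 41.0 to 66.5, the first replicate column gave 20.7 to 38.5 and the second 24.0 to 35.3. The chinmo summits lay between -14664 and 3015 bp from the closest protein-coding start, negative being upstream, and 1251 to 10569 bp from any annotated start. At Antp the pooled signals were 45.1 to 55.7, with summits between -12139 and 24565 bp from the closest protein-coding start and 592 to 12139 bp from any annotated start, 1 of them in a 3′ UTR and 4 in introns. Antp had 0 passing peaks and chinmo had 1. These genes own long stretches of DNA: 53.7 kb lay closest to a chinmo start and 127.2 kb to an Antp start, against a median of 4.33 kb over all coding genes. Genes with 4 each came next, among them bun, a TSC22 family factor, msi, an RNA-binding protein of sensory organ precursors, and mtd. These were taken from the tie by summed signal. The genes shn, RapGAP1, Pdp1, CG43693, Lim1, baz and sli also had 4.

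Among proneural basic helix-loop-helix genes, 2 of 10 had a near-miss peak, ato and da (median 11.1 kb of closest DNA). The da peak (chr2L:10388076-10388411) had signals of 23.9 in the first column and 35.3 in the second and lay in the 5′ UTR, 139 bp downstream of a start. Both genes also had a passing peak: that of ato (chr3R:8274843-8275178) lay 3041 bp upstream with 37.0 and 27.4, and that of da (chr2L:10390887-10391222) in a coding exon with 30.7 and 30.01. Of 15 genes listed as Atonal targets, 3 (20.0%) had a near-miss peak and 7 (46.7%) a passing one, against 13.1% and 19.6% of all coding genes. A median of 11.2 kb of DNA lay closest to these genes, against 4.33 kb over all coding genes. These 3 were Delta, the Notch ligand (25.1 and 24.3, in an intron), dap, a CDK inhibitor (28.6 and 21.9, in the 5′ UTR), and Rfx, a regulator of ciliary genes (25.6 and 22.1, 1679 bp upstream). In the sensory cilium list 2 of 22 genes (9.09%, median 5.69 kb) had one, Rfx and IFT52.

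Genes of eye and segment patterning had near-miss peaks more often than the 13.1% of all coding genes, and their stretches of DNA are longer, so the counts are given with that length. In the retinal determination list, 9 of 18 genes had a near-miss peak, with a median of 21.7 kb of closest DNA per gene. They include toe, a Pax factor (44.7 and 24.8, 1938 bp upstream), tio, a zinc finger factor (24.9 and 26.6, in the 5′ UTR), Lim1 (38.3 and 24.0, 69 bp upstream) and so, a homeobox factor (28.7 and 21.9, 24 bp upstream). In the segmentation and Hox list the count was 12 of 26 (46.2%, median 25.9 kb), and 6 of 26 with summits within 5000 bp of a start. With that limit it was 7 of 18 in the retinal list and 1631 of 13764 over all coding genes. Dfd had 23.0 and 55.6, abd-A had 23.1 and 37.4, ptc, the Hedgehog receptor, had 34.4 and 26.7, and hry, a pair-rule repressor, had 44.3 and 22.2. Passing peaks fell on 7 of the 18 retinal and 8 of the 26 segmentation genes, against 19.6% of all coding genes.

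In the ecdysone response list 6 of 13 genes (46.2%, median 50.05 kb) had a near-miss peak, among them Eip74EF (23.1 and 31.6) and the nuclear receptor genes Hr3 (36.6 and 24.6), Eip75B (22.5 and 38.7) and ftz-f1 (24.1 and 26.2). In the mesoderm and muscle list the count was 7 of 18 (38.9%, median 14.6 kb), with bin at 30.4 and 25.7, slou at 22.4 and 26.2 and eve at 32.9 and 22.2 beside Mef2. In the Notch pathway list it was 9 of 25 (36.0%, median 5.76 kb). The receptor gene N had 44.2 and 24.7 at 87 bp upstream, the coactivator gene mam 19.9 and 51.7, and E(spl)m5-HLH, a repressor induced by Notch, 22.2 and 33.8. In the EGFR pathway list it was 5 of 19 (26.3%, median 17.1 kb), with the inhibitors sty (42.1 and 23.2) and aos (24.7 and 24.1), the ligand spi (29.8 and 21.6) and the GTPase Ras85D (21.9 and 28.1). The neural precursor list had 3 of 19 (15.8%, median 11.7 kb): brat, cpo (37.2 and 24.5) and gcm, the glial switch (21.1 and 34.97).

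The list of promoter and insulator factors had 4 of 16 genes (median 3.92 kb) with a near-miss peak and 10 with a passing one. The near-miss peak at Dref, which encodes the DRE-binding factor, had 48.2 and 23.1, with its summit 2 bp downstream of the Dref start and within 500 bp of the RpL13 start. Those at Trl, the GAGA factor gene, at zld and at Cp190 had 46.2 and 21.8, 29.7 and 21.6, and 28.5 and 24.2. Of 92 ribosomal protein genes, 20 (21.7%, median 2.05 kb) had a near-miss peak, 39 a passing one and 4 both. The strongest were at RpS5a (22.4 and 54.7), RpL24 (22.6 and 46.0), RpS4 (41.4 and 25.7) and RpL7-like (24.1 and 32.8), with summits between -113 and 88 bp from a coding start. The lists were not tested, and a share above 13.1% is not shown to be particular to any list.

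Of the 84 near-miss peaks with an Atonal-type site within 50 bp of the summit, 51 lay over 500 bp from any start. The 5 of these with the highest signal were nearest to Sqor (22.4 and 44.3, in a coding exon), par-1, a polarity kinase (36.6 and 22.9, in a coding exon), Pka-C3 (28.9 and 25.9), bel (41.6 and 25.7) and InR, the insulin receptor (30.9 and 26.5, in an intron). The bel peak had its replicate summits at the same base and the Pka-C3 peak 150 bp apart. The sites of Pka-C3 and bel are those in capitals in the sequences above.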

How the data were processed

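The authors deposited peak lists on dm6, with a peak signal and, in ranked lists, the −log10 of the global IDR (column layout read from the files, unit of the signal not stated). Per the accompanying text files, lists derive from alignments. Unknown are the aligner, the peak caller and the control (not given in the sources used here). No read counts are given, so depth and the precision it gives are unknown.

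Of 161563 ranked rows, the 159835 on the main arms were used. Both replicates form 1 group. Starts and exons follow Ensembl release 115, and bases the RefSeq dm6 assembly. All peaks ended within their arm. Where annotations overlapped, 5′ UTR went first, then coding exon, 3′ UTR, other exon, intron. Shares were compared with two-sided Fisher's exact tests or exact McNemar tests (larger p of both flanks, p of 1 where a share lay between the flanks), with Wilson 95% intervals and a threshold of 0.05 after Benjamini-Hochberg adjustment. Python 3.11.15, numpy 2.4.6, scipy 1.17.1, pandas 2.3.3 and matplotlib 3.10.9 were used, and the tests were tested on simulated data.

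The near-miss peaks, lists and tests were chosen with earlier results of these data known. Genes named were ato and da, those of the 10 highest signals, of 3 peaks at each side of each IDR edge, the 5 with most near-miss peaks (ties by summed signal), up to 4 per list, and 5 with a distal Atonal-type site. Of the sequences, the 5 near-miss windows with an Atonal-type site follow a rule of place and signal. The windows at the DRE and at ato, and the genes of other shown windows, were chosen after their values were seen. Leaving out a replicate means using the ranked list made from the other replicate alone, whose IDR does not compare the replicates. Alternatives varied distances, windows, overlap, membership and replicates. Those added after the data were seen were rows sharing no replicate peak, arms near and away from starts, the word scan and peaks within 1 annotation class.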

Additional observations from a re-analysis of the deposited data

How the results depend on the processing

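The 42 results gave 263 values under alternatives, of which 200 were rated the same. For a test this means that direction and call were kept. For a count of calls it means only a similar number. The 6 annotation classes that differed from passing peaks became 4 without replicate 1 and were rated the same. The shares near a start, the summit distances and the coding gene count held under every alternative run for them. The difference in overlap with passing peaks was 0.0690 points without rows sharing a replicate peak (two-sided Fisher's exact test, p = 0.438). An overlap of 50% gave 0 peaks in either class and no value. In both classes the closest summit lay 199 bp from a passing one. The number of arms that differed from passing peaks was 2, and became 4 with conservative peaks only and 0 both near and away from starts. Against low-ranked peaks it was 3, and became 0 near starts and 1 to 3 without a replicate. With conservative peaks only it became 5, though that setting left the peaks of this comparison unchanged. There only the adjustment moved, as it is made over both comparisons together. Motifs that differed from passing peaks numbered 6, and 2 away from starts. Motifs that differed from the flanks numbered 7, and 4 within 25 bp of the summit, 4 near starts, 3 away from them and 2 to 7 without a replicate. Directions turned round for 5′ UTR against passing peaks (-1.27 to 2.17 points without a replicate), for intergenic DNA against low-ranked peaks (2.97 to 5.51), for arm 3L against low-ranked peaks (-3.10 to 1.499 without a replicate, -0.0749 near starts) and for the DRE against flanks away from starts (-0.488). The causes were not tested, though single-replicate lists and splits hold fewer peaks. No paired analysis was possible because there is 1 group. The unknown depth and the lack of an analysed control limit every value.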

Other observations

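Away from starts, near-miss peaks were compared with low-ranked peaks of the same annotation class (two-sided Fisher's exact tests, Benjamini-Hochberg adjustment over 15 tests, added after the data were seen). The X share was lower in near-miss peaks in all 3 classes: 6.32% against 17.9% in coding exons (22 of 348 near-miss peaks, adjusted exact p = 7.69e-09), 10.1% against 20.3% in introns (47 of 466, adjusted exact p = 3.92e-08) and 6.76% against 14.1% in intergenic DNA (15 of 222, adjusted exact p = 0.00346). CAGCTG was in 8.37% of near-miss and 4.67% of low-ranked intronic windows (adjusted exact p = 0.00286). In coding exons it was in 10.6% and 8.34%, and in intergenic DNA in 6.76% and 4.73% (adjusted exact p = 0.328 for both). Mean GC content was higher in near-miss windows in each class, at 56.3% against 54.3% in coding exons, 47.7% against 44.3% in introns and 48.3% against 45.3% in intergenic DNA, and its part in these shares was not tested. The Atonal-type site passed no test in any class, with 5.17% against 4.56% in coding exons, 3.65% against 4.398% in introns and 3.60% against 4.14% in intergenic DNA. CANNTG passed none either. CNANTG was less frequent in near-miss than in low-ranked coding exon windows, at 51.1% against 58.2% (adjusted exact p = 0.0260). In introns and intergenic DNA its share was higher, without a call.

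Some shares turned round along the IDR, among them those of coding exons, the X chromosome and 5′ UTRs. The coding exon share was 1.54% up to an IDR of 0.001, 17.8% from 0.01 to 0.02, 25.9% from 0.02 to 0.05 and 33.4% from 0.1 to 0.2, and 25.2% above 0.2. The X share was 17.8% up to an IDR of 0.001, 10.8% from 0.01 to 0.02, 11.0% from 0.02 to 0.05, 9.34% from 0.1 to 0.2 and 18.2% above 0.2. The near-miss bands thus lay on the slope of the coding exon share and in the trough of the X share. These are counts over peaks without a test.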
